A study of Mus musculus with 2 samples.

Results

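Of 21911 protein-coding genes of the mouse, 238 (1.09%) kept their promoters closed in calf muscle while holding open chromatin further inside the gene. These genes were selected on the DNase-seq peak lists themselves. No peak of either replicate lay within 1 kb of any annotated start site of the gene, and at least 3 peaks of each replicate lay wholly inside the gene record. Peaks within 1 kb of a start site of another protein-coding gene were left out before counting, and the peaks that remained are called body peaks. Promoter closure and the number of body peaks were therefore used to choose the genes and are given as description, with no test. Of all protein-coding genes, 7013 (32%) had no promoter peak in either replicate, and 3261 (14.9%) had 3 or more body peaks in each. The 238 genes made up 3.39% of those with a closed promoter. They are set beside the 2908 genes with an open promoter in both replicates and 3 or more body peaks in each, and beside the 6775 genes with a closed promoter and fewer body peaks.

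DNase I cuts DNA where it is not wrapped in nucleosomes or covered by proteins, so sites of dense cutting mark regulatory DNA. A promoter is the open stretch at a start site of transcription, and enhancers, insulators bound by the zinc-finger protein CTCF and start sites missing from an annotation can also be open inside genes. A footprint is a short stretch within an open site that is cut less than its surroundings, as happens where a bound protein shields the DNA. Open chromatin alone does not show whether a gene is transcribed.

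The tissue was the gastrocnemius, the main calf muscle, from adult males of B6CASTF1/J, a cross of the C57BL/6J and CAST/EiJ strains, at an age of 18 to 20 months. There were 2 biological replicates in 1 group, each with technical replicate 1, and no second condition. They are labelled with 1 donor but separate biosamples; it is not known if 1 animal gave both, and a spread over n = 2 may be technical. Of 6 muscle fibre markers, 6 had a promoter peak in replicate 1 and 5 in replicate 2, the exception being Myh4. All 5 fibro-adipogenic, all 5 endothelial and all 4 mural markers had a promoter peak in both replicates, as did 3 of 5 macrophage, 2 of 5 satellite cell, 2 of 4 Schwann cell and 2 of 3 tenocyte markers. Of 3 adipocyte markers 2 had one in replicate 1 and 1 in replicate 2, and of 3 neuron markers 3 and 2, so an open promoter of a marker does not by itself identify a cell type here. The tissue is a mixture of cell types, and an open site in few cells cannot be told apart from a less open site in many. Replicate 1 had 131398 peaks and replicate 2 had 91567, so counts of body peaks differ between the replicates with the length of the lists. Peak signal is in the unit of the deposited lists, whose scale is not stated, and depth is unknown. Signals are therefore read within a replicate, or as a percentile of that replicate's list.

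The following 8 regions show what the body peaks are made of. Each is the body peak of the gene named that was called in both replicates and had the highest mean percentile of signal, given for the bases that both calls share, on build mm10, plus strand, 5′ to 3′. The sequence is that of the C57BL/6J reference, and the alleles of the hybrid were not separated. Capitals mark bases inside a footprint of both replicates. The first 4 genes are on muscle lists, Akap6 and Rapgef4 are among the genes with the most body peaks, and Pebp4 and Il31ra are among those with the strongest.
Scn4a chr11:106350961-106351180: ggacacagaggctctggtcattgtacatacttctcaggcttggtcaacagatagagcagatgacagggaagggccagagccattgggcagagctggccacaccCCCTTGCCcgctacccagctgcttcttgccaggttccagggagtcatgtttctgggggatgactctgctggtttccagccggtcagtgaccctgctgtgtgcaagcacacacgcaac
Myh3 chr11:67085521-67085700: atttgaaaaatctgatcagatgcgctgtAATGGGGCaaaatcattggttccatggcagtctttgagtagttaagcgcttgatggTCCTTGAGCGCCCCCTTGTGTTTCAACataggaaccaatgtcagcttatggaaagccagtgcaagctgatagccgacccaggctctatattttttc
Myh7b chr2:155619921-155620100: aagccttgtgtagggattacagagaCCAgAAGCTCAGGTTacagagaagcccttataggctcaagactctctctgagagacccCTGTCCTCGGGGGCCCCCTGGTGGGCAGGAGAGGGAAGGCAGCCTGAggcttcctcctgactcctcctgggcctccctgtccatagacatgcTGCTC
Pax7 chr4:139813463-139813620: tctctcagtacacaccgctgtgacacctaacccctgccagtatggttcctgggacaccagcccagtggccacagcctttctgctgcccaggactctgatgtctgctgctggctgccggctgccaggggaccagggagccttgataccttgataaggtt
Akap6 chr12:52868041-52868160: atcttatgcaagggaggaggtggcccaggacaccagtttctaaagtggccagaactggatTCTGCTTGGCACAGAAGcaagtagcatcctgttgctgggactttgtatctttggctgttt
Rapgef4 chr2:72038261-72038460: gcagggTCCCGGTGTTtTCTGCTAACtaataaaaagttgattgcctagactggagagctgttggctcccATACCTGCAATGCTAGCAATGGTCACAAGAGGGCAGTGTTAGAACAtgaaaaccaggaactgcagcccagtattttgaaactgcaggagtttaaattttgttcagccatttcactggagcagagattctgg
Pebp4 chr14:69861521-69861680: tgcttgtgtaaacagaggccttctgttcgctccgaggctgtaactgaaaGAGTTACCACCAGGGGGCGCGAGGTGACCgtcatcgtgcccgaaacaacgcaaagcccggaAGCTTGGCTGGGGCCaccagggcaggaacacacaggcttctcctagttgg
Il31ra chr13:112578161-112578320: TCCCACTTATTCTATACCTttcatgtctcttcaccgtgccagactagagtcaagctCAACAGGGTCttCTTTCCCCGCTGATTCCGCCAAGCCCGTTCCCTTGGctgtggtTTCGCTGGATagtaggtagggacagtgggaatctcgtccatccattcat

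Footprints of both replicates covered 75 of 160 bases in the Il31ra region and 66 of 180 in that of Myh7b. Most of the Il31ra region has exact copies elsewhere in the reference, as given below. None of the 158 bases at Pax7 lay in a footprint of both, although replicate 1 had 22 footprint bases there and replicate 2 had 7. The CTCF core, the middle of the sequence bound by CTCF, matched within the Myh7b region at 155620016 to 155620027 and within the Pebp4 region at 69861576 to 69861587, and all 12 bases of each match were in footprints of both replicates. The Scn4a region holds the myogenic E-box CAGCTG, the letters read by MyoD and its relatives, at 106351079 to 106351084, where no base was in a footprint of both. A match says only that the letters are present.

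The genes on muscle lists come first. Of 51 genes for sarcomere and excitation, 1 was among the 238 (1.96%), namely Scn4a, which encodes the voltage-gated sodium channel that carries the action potential along adult muscle fibres. Of 25 genes for developmental and cardiac muscle, Myh3 and Myh7b were (8%). Of 34 myogenic regulators and satellite cell genes, Pax7 was (2.94%). None of 24 neuromuscular junction genes and none of 39 genes of muscle metabolism qualified, and closed promoters in both replicates were seen in 2 of the junction genes and in 0 of the metabolism genes. The share over all protein-coding genes was 1.09%, and with counts this small no list is called different from it.

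Scn4a (chromosome 11, minus strand, 34.7 kb) had 9 body peaks in replicate 1 and 10 in replicate 2, and 8 of each were called in the other replicate. Their median signal was 1.21 in replicate 1 and 0.922 in replicate 2, and every peak of replicate 1 and all but 1 of replicate 2 held a footprint. The strongest, printed above, had signals of 2.21 and 1.72 and lay 1572 bp from the nearest start site. GENCODE gives 2 start sites for this gene, neither with a site of significant cutting in promoter reach. RefSeq, a second annotation, adds a computationally predicted start 12271 bp from the nearest GENCODE start, outside the GENCODE record, and that start had a peak of 3.76 in replicate 1 and 3.39 in replicate 2. Both values are above the strongest body peak of the gene in the same replicate. By the RefSeq start sites Scn4a therefore does not have a closed promoter.

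Myh3 encodes the embryonic myosin heavy chain, used by fibres before birth and again when muscle regenerates (chromosome 11, plus strand, 24.0 kb). It had 5 body peaks in replicate 1 and 4 in replicate 2, and all 4 peaks of replicate 2 overlapped a call of replicate 1. Signals were 1.08, 0.634, 1.52, 0.893 and 1.36 in replicate 1, and 0.799, 0.783, 1.09 and 0.827 in replicate 2. The peaks lay in introns, 3 of them up to 7221 bp from the start in both replicates. The others of replicate 1 were at 21981 and 23521 bp, and replicate 2 had 1 at 23555 bp. The peak at 21981 bp, called in replicate 1 alone, lay within 1 kb of a noncoding start. No peak fell within 2001 bp of the start site in either replicate, and the RefSeq starts were closed too. Myh4, an adult fast myosin gene of the same cluster, had 25 body peaks in replicate 1 and 0 in replicate 2, while the counts of Myh3 differed by 1.

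Myh7b encodes a myosin heavy chain related to the slow and cardiac forms (chromosome 2, plus strand, 23.1 kb). It had exactly 3 body peaks in each replicate, the least the choice allowed, and every one was called in both. Signals were 1.04, 2.96 and 1.22 in replicate 1, and 1.17, 2.60 and 1.55 in replicate 2, with the middle peak the strongest in each. That peak overlapped an exon and stood at the 92.2 percentile of the list in replicate 1 and the 87.0 percentile in replicate 2.

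Pax7 encodes the transcription factor that marks satellite cells, the stem cells of muscle, which are a small share of muscle nuclei (chromosome 4, minus strand, 96.5 kb). Its 9 body peaks in replicate 1 and 6 in replicate 2 were weak: the median signal was 0.416 in replicate 1 and 0.478 in replicate 2, and the highest was 0.736 and 0.649. All 6 peaks of replicate 2 were called in replicate 1 as well. The nearest lay 11387 bp from a start site in replicate 1 and 11300 bp in replicate 2. Of the other satellite cell markers, Myf5 and Calcr had closed promoters and at most 1 body peak in each replicate, while Vcam1 and Cdh15 had a promoter peak in both.

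**Figure D1:**
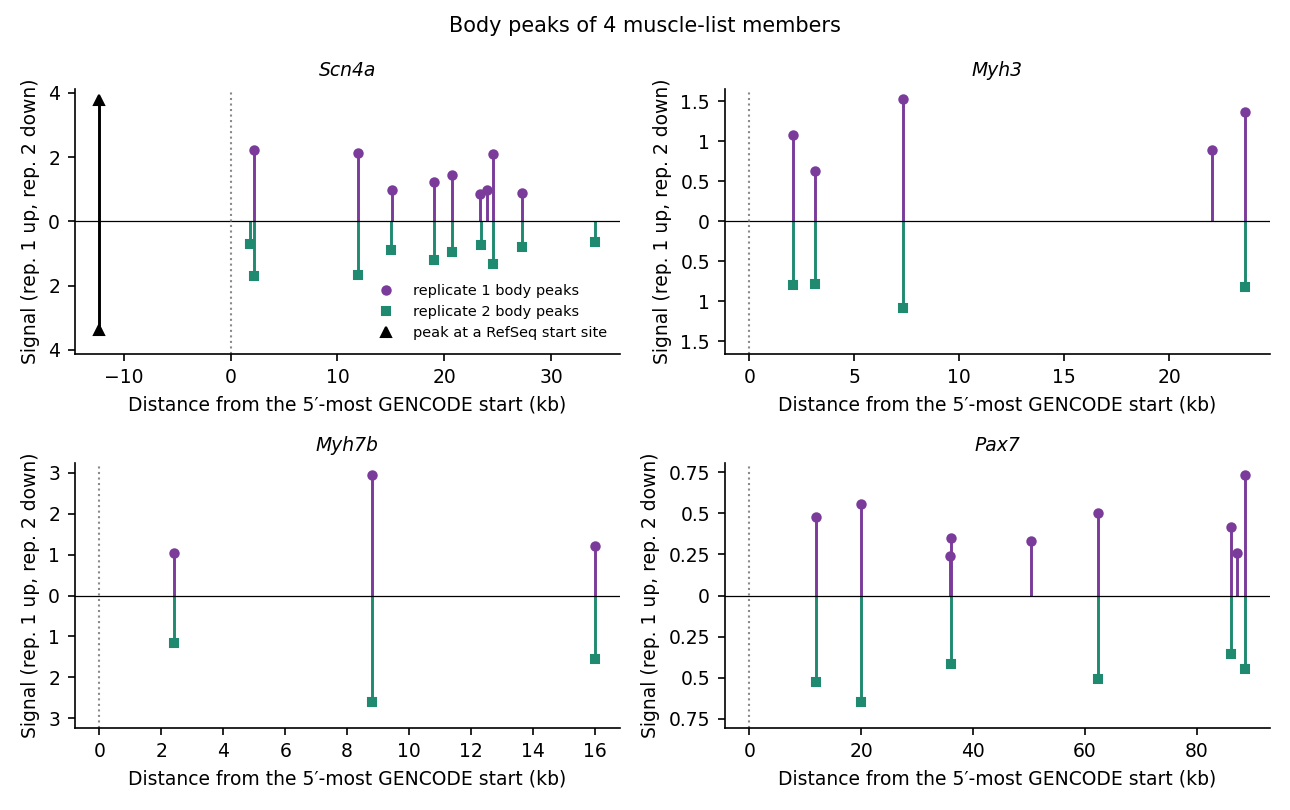
Body peaks of Scn4a, Myh3, Myh7b and Pax7 by distance from the 5′-most GENCODE start site (kb, x axis) and signal (y axis, unit of the deposited lists), with replicate 1 above and replicate 2 below the line. The dotted line is the start site, and black triangles mark the peak at a predicted RefSeq start of Scn4a, 12271 bp upstream, with signals of 3.76 and 3.39.

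Several genes are best known from nerve cells. Of 32 neuron genes, 3 were members (9.38%), as were 3 of 60 genes for axon guidance and adhesion (5%) and 4 of 71 ion channels and transporters (5.63%), beside 1.09% of all protein-coding genes. Grin2b, a subunit of the NMDA glutamate receptor, had 12 body peaks in replicate 1 and 5 in replicate 2, with median signals of 0.251 and 0.760. Ptprt, a receptor tyrosine phosphatase of neurons, had 14 and 7, with medians of 0.277 and 0.386. Csmd1, a very long gene for a membrane protein that restrains complement, had 7 and 6 body peaks in 1643 kb, of which 1 in each replicate was called in the other, and the highest signal was 0.208 and 0.358. The highest signal was 0.797 and 0.805 in Grin2b and 0.888 and 1.34 in Ptprt, above every peak of Csmd1.

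Among the 3 genes for axon guidance and adhesion, Slit1 had the highest median signals. It encodes a ligand of Robo receptors, and had 11 body peaks in replicate 1 and 8 in replicate 2, 7 shared in each, with median signals of 1.07 and 0.839. Cntn4, a contactin, had 7 body peaks in each replicate and 2 shared, with medians of 0.259 and 0.240. Pcdh15, a cadherin of the hair cell's tip link, had 7 and 5 with 2 shared, with medians of 0.193 and 0.263. Of the channels, Ryr3, the ryanodine receptor form scarce in adult muscle, had 14 and 6 body peaks with medians of 0.444 and 0.593. Ano2, a calcium-activated chloride channel, had 15 and 8 with medians of 0.416 and 0.461. Cacna2d4, an accessory subunit of calcium channels, had 6 and 4 with medians of 0.531 and 0.665, and Scn10a, the sodium channel of pain-sensing neurons, had 6 and 4 with medians of 0.449 and 0.428.

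Dkk3, of the Dickkopf family, was the single member of 58 genes of BMP, TGF-beta, WNT and FGF signalling, with 10 body peaks in replicate 1 and 5 in replicate 2. Tnxb, which encodes the matrix glycoprotein tenascin-X, was the single one of 36 genes of fibro-adipogenic cells and matrix, with 10 and 9 body peaks and high median signals of 1.12 and 1.24. Its strongest shared peak reached 3.48 and 5.16, and a predicted RefSeq start 10082 bp from the nearest GENCODE start had a peak of 1.54 in replicate 1 and 1.60 in replicate 2. Lcp2, an adaptor of T cell and platelet receptors, was the single one of 33 macrophage and immune genes, and all of its 6 and 5 body peaks also lay inside another protein-coding gene record. No gene of the endothelial, mural, Schwann cell, tenocyte, adipocyte, liver, germ cell or developmental transcription factor lists was a member. Closed promoters were common in some of these lists: 14 of 18 liver genes and 11 of 14 germ cell genes were closed in both replicates. Lists were not matched for gene length, whose part in these counts was not tested.

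The genes with the most body peaks were long. Arhgap15, which encodes a GTPase-activating protein for Rac, had 32 body peaks in replicate 1 and 21 in replicate 2 over 647 kb, with 16 called in both. Plb1, a phospholipase, had 16 and 14 over 134 kb, 14 called in both. Rapgef4 encodes an exchange factor for Rap1 that is switched on by cAMP, and it had 17 and 14, with 15 and 14 of them called in the other replicate. Dlgap2, a scaffold of the postsynapse, had 27 and 14, with 12 called in both. Megf11 and Megf6, both with EGF-like repeats, had 23 and 13 body peaks (12 called in both) and 13 and 11 (11 called in both). Akap6 encodes an anchor of protein kinase A found at the nuclear envelope of muscle and heart cells, and it had 22 and 12 with 11 called in both. Its peaks spanned signals from 0.198 to 2.75 in replicate 1 and from 0.268 to 1.42 in replicate 2, so strong and weak sites stood side by side within 1 gene. Predicted RefSeq starts inside 3 of these genes had a peak in both replicates, with signals of 1.36 and 1.14 in Rapgef4, 0.284 and 0.347 in Akap6 and 0.223 and 0.375 in Megf11. By RefSeq these 3 genes, and Arhgap15 by a curated start, do not have a closed promoter.

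Zfp618, a zinc-finger gene chosen here after its values were seen, had the largest count of all in replicate 2, with 38 body peaks against 10 in replicate 1. Of the 38, 33 had no counterpart in replicate 1, and those had signals from 0.0559 to 0.263, all low in that list. A run of 22 peaks covered 10.9 kb in replicate 2, where replicate 1 had 0. Leaving the gene out raised the share of replicate 2's body peaks called in replicate 1 to 86.9%, against 84.4% with it.

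**Figure D2:**
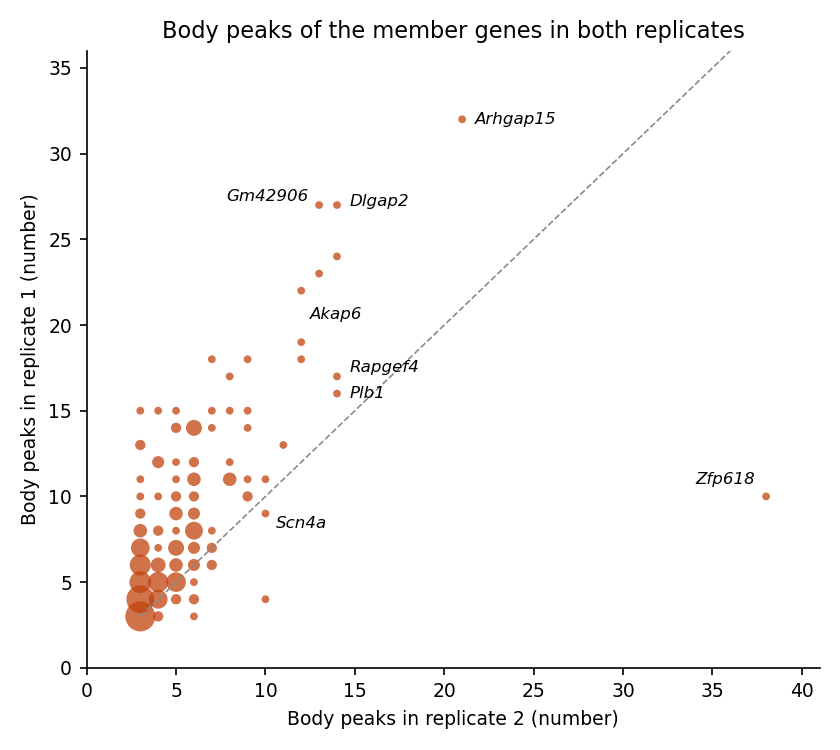
Number of body peaks of each of the 238 genes in replicate 1 (y axis) and replicate 2 (x axis), with larger points where several genes share a position and a dashed line of equal counts. Most genes lie above the line, with Arhgap15 highest at 32 and 21, and Zfp618 stands far to the right at 10 and 38.

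Across the 238 genes, the median number of body peaks was 6 in replicate 1 and 4 in replicate 2, against 9 and 5 in the 2908 genes with an open promoter. Replicate 1 had more body peaks in 172 genes, replicate 2 in 13, and 53 had equal counts. The numbers were related between replicates across genes (Spearman's rho 0.65 over 238 genes, which are not independent replicates and share both libraries). Both counts were used to choose the genes, and rho was not computed for other genes, so 0.65 is description without a background. At the threshold, 101 genes had exactly 3 body peaks in the replicate with fewer, and 204 closed-promoter genes just outside had 2. Counting only peaks called in both replicates, 199 genes still had 3 or more in each, 34 had 2, 4 had 1, and Sntg1 had 0.

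Body peaks were of moderate strength. In all, 1647 distinct body peaks in replicate 1 and 1112 in replicate 2 fell in these genes, 1.25% and 1.21% of each list. Their median signal was 0.482 in replicate 1 and 0.598 in replicate 2 (mean 0.540 ± 0.082, SD, n = 2), against 0.609 and 0.710 for body peaks of open-promoter genes. In percentiles of the list the medians were 39.5 and 37.5, against 50.6 and 46.6. The difference had the same direction in both replicates and no test was made. Within the 238 genes, longer genes had weaker peaks. The rank correlation of a gene's median signal with its length was -0.54 in replicate 1 and -0.47 in replicate 2. It was not computed for open-promoter genes, so these values are description without a background. The choice of genes required the same least number of body peaks at any length. The part of that rule in the correlation was not tested.

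**Figure D3:**
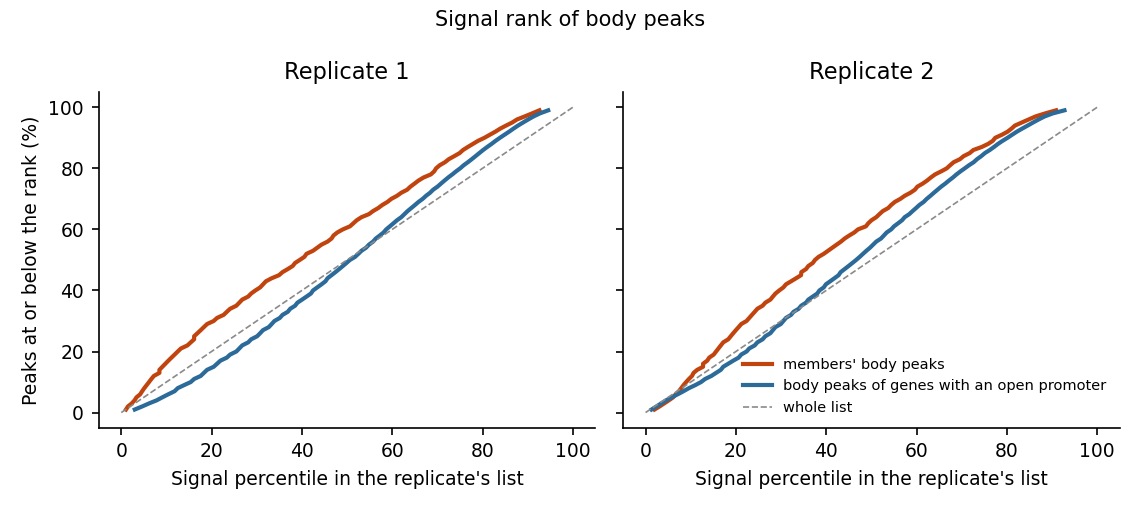
Cumulative share of body peaks (y axis, %) by signal percentile in the replicate's own list (x axis), for the 238 genes in orange and open-promoter genes in blue; the dashed diagonal is the whole list. The orange curve lies above the blue over most of the range in both replicates, with medians of 39.5 and 37.5 against 50.6 and 46.6.

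Single peaks reached the top of the lists. In 21 of the 238 genes the strongest body peak called in both replicates was above the 90th percentile on average, and in 40 it was below the 50th. These counts were not made for open-promoter genes. Over all body peaks, the 90th percentile of signal rank was 80.42 and 77.43, against 83.85 and 80.15 in open-promoter genes. Il31ra, which encodes a receptor subunit for the itch cytokine interleukin 31, had a peak of 24.2 in replicate 1 and 29.9 in replicate 2, while its other 4 peaks did not pass 2.72. That region, printed above, is not unique: 75.2% of its 32-base windows have another exact copy in the reference chromosomes. The median was 4 occurrences per window, its own included. Copies outside the assembled chromosomes were not counted, so this can be an undercount. How reads with several matches were treated is not given in the sources used here, and the part of the copies in this signal was not tested. Of the body peaks of the 238 genes long enough for such windows, 16 of 1643 in replicate 1 (0.974%) and 12 of 1107 in replicate 2 (1.08%) had copies for at least 50% of their windows, against 0.375% and 0.658% for open-promoter genes. In Gm3594 all 3 body peaks and in Zfp600 4 of 5 were of this kind in both replicates.

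None of the 8 genes with the strongest shared body peaks was on a muscle list. Pebp4, of the phosphatidylethanolamine-binding family, had a peak of 5.32 in replicate 1 and 5.53 in replicate 2, the CTCF-bearing region printed above. Tmprss6, a protease best known for setting iron hormone levels in the liver, had 5 body peaks in each replicate, all shared and all with a footprint, the strongest at 4.80 and 5.37. Dpys, an enzyme of pyrimidine breakdown, reached 4.40 and 4.61, and M1ap, a gene of meiosis, reached 4.75 and 4.85. Gm44511 had 6 body peaks in each replicate, all shared, with medians of 1.49 and 1.75 and a highest signal of 5.18 and 6.61. Gm42906 and Tnxb complete the 8. At the strongest site of each the peaks of both replicates stood above the 90th percentile on average.

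Density per length picked out short genes, which the choice itself favours, since each gene had at least 3 body peaks at any length. Tchh, which encodes trichohyalin of the hair follicle, had 9 body peaks in replicate 1 and 6 in replicate 2 in 6.75 kb, all in its exons. Klk4, a protease of tooth enamel, had 3 in each replicate over 4.64 kb, the shortest of all 238 records. Prr36 had 5 in each and all were shared, and the linker histone gene Hist1h1d had 3 in each. Gm11146, Upk3b, Gm3594 and Ugt1a2 completed the 8 densest. Signals at Tchh were mostly low, with medians of 0.244 and 0.444. The group as a whole ranged from 4.64 to 1643 kb in length, with 107 genes over 100 kb and 36 under 30 kb.

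Sites of significant cutting, and the footprints derived with them, were made from the same alignments as the peaks, and every gene with a promoter peak in both replicates had a site, so they describe the closed promoters and are no independent check of closure. Such sites (false discovery rate under 0.05) lay within 1 kb of a start site in 18 of 238 genes in replicate 1 (7.56%, exact 95% interval 4.54 to 11.7) and in 15 in replicate 2 (6.30%, 3.57 to 10.2). Among closed-promoter genes with fewer body peaks the shares were 2.29% and 1.65%. Those genes had a median of 2 start sites against 3, and so fewer windows in which a site could lie. Their records were also shorter, with a median of 7.36 kb against 85.5 kb, and the sets were not matched. Where present, the sites of the 238 genes covered a median of 8.5 bases in replicate 1 and 22 in replicate 2, against 1310 and 1133 in open-promoter genes. Their lowest rates had medians of 0.0393 and 0.0390, just under the limit of 0.05. None of the 238 had a footprint within 1 kb of a start site in either replicate, and 206 had no site there in either. Intervals here and below cover counting error only.

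The number of genes moved with the window around start sites, to 290 at 500 bp and 150 at 2500 bp, against 238 at 1 kb. The nearest peak to a start site lay 1027 bp away in Sctr, 1030 bp in Pcdh15, 1047 bp in Abcg1 and 1068 bp in Il34, which are just inside the group. Just outside stood Adcyap1r1 at 956 bp, Ahnak2 at 934 bp, Flrt1 at 912 bp and Tln2 at 901 bp.

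A second annotation opened some of the promoters. RefSeq lists start sites for 227 of the 238 genes, and in 22 of these (9.69%) a RefSeq start had a peak within 1 kb in both replicates, in 33 in at least 1. For 20 of the 22 that start came from predicted transcripts, and for Arhgap15 and Gucy2g from curated ones. In 17 of the 22 the open RefSeq start lay inside the GENCODE record, and in 5 outside it. Peaks inside the record were required by the choice of genes, which favours a peak near an internal start. The same share was not computed for other genes, so 9.69% has no background here. The strongest after Scn4a was Scnn1a, the alpha subunit of the epithelial sodium channel, with 2.37 and 3.05, named here after its values were seen. At the curated start of Arhgap15 the peak was modest, at 0.452 and 0.509.

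Start sites of the 238 genes were poorer than those of open-promoter genes in CpG, the dinucleotide that clusters at promoters active in many tissues. The highest observed-over-expected CpG ratio within 500 bp of a start site had a median of 0.376, against 0.782 in open-promoter genes with body peaks and 0.200 in closed-promoter genes with fewer. A ratio of at least 0.6 was reached by 55 of 238 (23.1%, 17.9 to 29.0), against 81.4% (80.0 to 82.8) and 6.97% (6.37 to 7.599). The median number of start sites was 3, against 5 and 2, and taking the highest ratio over start sites favours genes with more of them. Pax7 at 0.730, Ptprt at 0.837, Csmd1 at 0.803, Slit1 at 0.771 and Pcdh15 at 0.889 belonged to the CpG-rich minority, and Scn4a at 0.382, Myh3 at 0.215 and Myh7b at 0.498 did not.

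**Figure D4:**
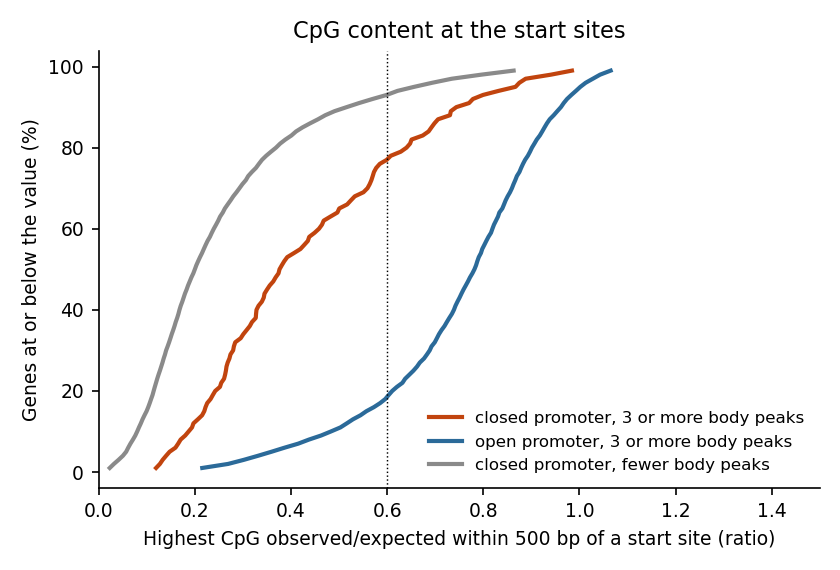
Cumulative share of genes (y axis, %) by the highest CpG observed-over-expected ratio within 500 bp of a start site (x axis), with a dotted line at 0.6. The 238 genes (orange, median 0.376) lie between closed-promoter genes with fewer body peaks (grey, median 0.200) and open-promoter genes (blue, median 0.782).

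The 55 genes at or above 0.6 had longer records than the other 183, with medians of 174 kb against 70 kb. Their body peaks were sparser, at 0.535 per 10 kb in replicate 1 and 0.314 in replicate 2, against 0.821 and 0.560 in the 183. Their median number of body peaks was 7 and 5, against 6 and 4. Every gene had at least 3 body peaks at any length, so the choice itself favours higher density in shorter records. The median of their genes' median signal was 0.429 and 0.553, against 0.574 and 0.643. The 55 and the 183 were not matched for length, whose part in these differences was not tested.

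The base composition of body peaks differed little between the sets. In 500 bp around the peak, their median CpG ratio was 0.220 in replicate 1 and 0.227 in replicate 2, against 0.221 and 0.227 for body peaks of open-promoter genes. Both a ratio of at least 0.6 and a G+C share of at least 50% were met by 2.13% and 2.70% of body peaks in the 238 genes. The shares were 1.27% and 2.05% in open-promoter genes, and 2.25% and 3.38% over all peaks away from protein-coding start sites. Within 1 kb of a noncoding gene's start lay 2.91% and 2.79% of body peaks in the 238 genes, against 2.90% and 3.18% in open-promoter genes. Gm42906 held the clearest example, a CpG-rich peak with a ratio of 0.973 and signals of 9.36 and 10.2, within 1 kb of a noncoding start.

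Several members are annotation units more than single genes. In 27 genes in replicate 1 and 28 in replicate 2 every body peak also lay inside another protein-coding record, and in 197 and 199 none did. The long record Gm42906 had 27 and 13 body peaks, 19 and 10 of them inside another gene, and Iqschfp had 24 and 14, with 23 and 14 inside others. The 238 genes form 223 loci when genes that share a body peak are joined. The largest joins 10 records of the protocadherin-gamma cluster on chromosome 18, whose variable exons are alternative starts of cell-surface adhesion proteins, and another joins 6 Ugt1a records on chromosome 1, glucuronidation enzymes of the liver and gut built on shared last exons. Members of a locus are linked by shared body peaks, although their counts can differ, and they are not independent of each other. Adora3 and Tmigd3 share the remaining one.

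Along the gene, body peaks of the 238 lay further from a start than those of open-promoter genes. The median distance to the nearest own start site was 27140 bp in replicate 1 and 22270 bp in replicate 2, against 18150 and 16210 bp. The first intron of the longest transcript, where enhancers often sit, held 20.6% and 20.8% of gene and peak pairs, against 29.9% and 30.1%. Exons of the gene were overlapped by 10.6% and 12.5%, against 7.86% and 9.596%. Another gene's open start site was nearer than any own start for 21.8% and 19.2% of pairs, against 10.5% and 11.0%. Inside another protein-coding record lay 17.1% and 15.7% of pairs, against 5.88% and 6.15%. Both replicates gave the same direction for each of these measures, and none was tested. The 238 genes had a median of 3 start sites against 5, and more start sites shorten the distance to the nearest. The sets were not matched for this. Peaks within 1 kb of an own start were left out in both sets of genes. All of these measures count gene and peak pairs, so a peak shared by several records counts once for each. Pairs numbered 1797 from 1647 distinct peaks in replicate 1 and 1198 from 1112 in replicate 2. In open-promoter genes they numbered 35124 from 34273 and 22748 from 22153. Shared peaks lie inside another record by definition, and the measures were not recomputed over distinct peaks.

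Footprints were somewhat less frequent over all body peaks than in open-promoter genes, but not within bands of equal strength other than the weakest of replicate 1. Body peaks of the 238 genes held a footprint in 82.5% of cases in replicate 1 (80.5 to 84.3) and 82.6% in replicate 2 (80.3 to 84.8), against 86.6% and 84.0% in open-promoter genes. Over all peaks away from protein-coding start sites the shares were 83.6% and 81.8%, inside the intervals of the 238 genes. In the weakest band, below the 25th percentile of signal, the shares of the 238 genes were 58.6% and 59.1%, against 59.5% and 55.0% in open-promoter genes. Between the 25th and 50th percentile they were 90.7% and 90.3%, against 86.6% and 85.7%. Above the 75th percentile they were 99.6% and 100%, against 99.5% and 99.7%. In all, 3513 and 2136 footprints fell in these body peaks.

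Recurrence between replicates differed little from that in open-promoter genes over all body peaks. Of the body peaks of replicate 1, 56.9% (54.5 to 59.3) overlapped a peak of replicate 2, and of those of replicate 2, 84.4% (82.1 to 86.4) overlapped one of replicate 1. Open-promoter genes gave 55.1% and 85.3%. At equal strength in replicate 1, recurrence was higher in the 238 genes: 20.8% (17.6 to 24.4) against 14.9% (14.1 to 15.8) in the weakest band, 54.5% (49.7 to 59.3) against 35.2% (34.3 to 36.2) in the next, and 85.3% (81.5 to 88.6) against 71.9% (71.1 to 72.8) above it. In replicate 2 it was 63.1% (58.0 to 67.9) against 52.5% (51.1 to 53.9) in the weakest band and 91.5% against 90.2% in the next, but 97.5% (94.8 to 98.97) against 98.1% (97.7 to 98.4) in the third. Because 3 body peaks were required in both replicates, the choice of genes itself favours recurrence, in both sets. That pull need not be equal, since the 238 genes had fewer body peaks per gene (medians of 6 and 4, against 9 and 5). The differences within bands are therefore description and cannot be read as a trait of these genes. Peaks called in both were stronger, with a median of 0.772 in replicate 1 and 0.671 in replicate 2, than peaks of 1 replicate alone, at 0.305 and 0.285.

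CTCF core matches were more frequent in body peaks of the 238 genes than in those of open-promoter genes. Their share was near that over all peaks away from protein-coding start sites. A match was found in 100 of 1647 peaks in replicate 1 (6.07%, 4.97 to 7.34) and 84 of 1112 in replicate 2 (7.55%, 6.07 to 9.27), against 3.87% (3.67 to 4.08) and 4.93% (4.65 to 5.22). Over all peaks away from protein-coding start sites the shares were 5.398% and 6.59%, inside the intervals of the 238 genes. Above the 75th percentile of signal the shares were 16.1% (11.7 to 21.4) and 17.1% (11.3 to 24.4), against 9.25% (8.57 to 9.96) and 11.96% (10.9 to 13.1) in open-promoter genes and 12.4% and 14.6% of all peaks away from start sites. In 70 of the 238 genes at least 1 body peak of each replicate held a match, and in 30 of 237 the strongest shared peak did. These 2 counts per gene were not made for other genes, so they have no background. Within footprint bases and 5 bp around them the shares were 6.55% and 7.94%, against 4.11% and 5.41%.

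**Figure D5:**
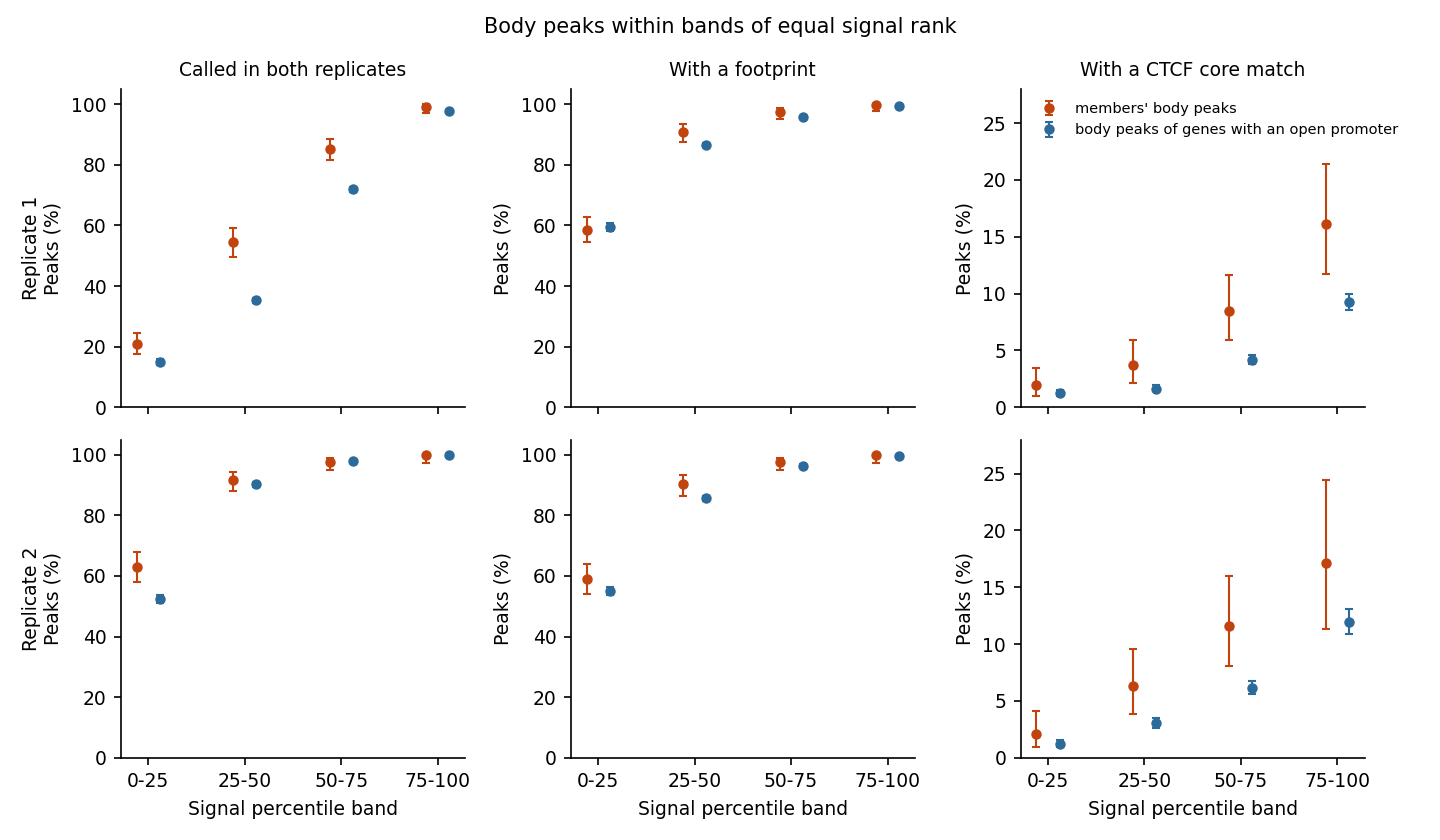
Share of body peaks (y axis, %) called in both replicates, with a footprint and with a CTCF core match, within 4 bands of signal percentile (x axis), for the 238 genes in orange and open-promoter genes in blue; bars are exact 95% intervals for counting error. Replicate 1 is above and replicate 2 below, and in the top band the CTCF shares are 16.1% and 17.1% against 9.25% and 11.96%. All peaks away from start sites, not drawn, had 12.4% and 14.6% in that band.

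Most motifs of other factors differed little in share between the sets. All 14 were searched on both strands, and a site can match more than 1. The myogenic E-box CAGCTG was in 21.01% (19.1 to 23.1) and 22.1% (19.7 to 24.7) of body peaks of the 238 genes, against 22.6% and 22.8% in open-promoter genes and 20.8% and 21% of all peaks away from start sites. TEAD (GGAATG) was in 12.8% and 11.8%, against 13.5% and 12.4%. RUNX (TGTGGT) was in 14.2% and 13.2%, against 14.2% and 13.7%. AP-1 (TGACTCA) was in 9.17% and 7.55%, against 8.26% and 7.35%, and MEF2 in 1.46% and 0.899%, against 1.41% and 0.939%. The ETS letters CCGGAAG were in 2.06% and 2.16%, against 1.32% and 1.42%.

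The CArG box, bound by serum response factor at genes of the contractile apparatus, was in 6 of 1647 body peaks in replicate 1 (0.364%, 0.134 to 0.791) and 0 of 1112 in replicate 2 (at most 0.331%), against 1.05% (0.940 to 1.16) and 0.876% (0.757 to 1.01) in open-promoter genes and 0.996% and 0.878% of all peaks away from start sites. The general E-box CACGTG was in 3.70% and 2.70% of peaks, against 4.15% and 4.13%. Within footprint bases it was in 0.810% (0.405 to 1.45) and 0.871% (0.377 to 1.71), against 1.71% (1.57 to 1.87) and 1.56% (1.39 to 1.75). The letters AGATAA, read by factors of the GATA family, were in 5.95% and 4.05%, against 6.05% and 4.86%. The other 4 motifs matched 0% to 1.09% of these body peaks. These shares describe the peaks of 2 libraries, and no difference was tested.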

How the data were processed

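DNase-seq was run on 2 biological replicates of 1 group of mouse gastrocnemius. Per the deposited README, the authors made peaks, sites and footprints for each sample separately from filtered alignments on mm10; the aligner and peak caller are not given in the sources used here. Each deposited peak has a signal whose scale is not stated. The deposited site files give a p-value column that is a false discovery rate, and the deposited footprint p-value is 0.01 in every row, a threshold. Depth is unknown. The authors deposited 2 peak lists per sample, and the larger was used here.

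Start sites, exons and gene records came from GENCODE M21 (GRCm38.p6; 21938 protein-coding records, 21911 symbols), and RefSeq start sites were an added check. Peaks were assigned with Python 3.11.15, numpy 2.4.6, pandas 2.3.3 and scipy 1.17.1, in code tested on made-up peaks. Overlap needed 1 bp. Intervals are exact Clopper-Pearson at 95% and cover counting error only. With 1 group there was no contrast and no test. Named genes are the 10 with the most body peaks called in both replicates, the 8 densest per 10 kb, the 8 with the strongest shared peak, members on muscle lists, up to 3 from each other list, and genes nearest the thresholds. Zfp618, Scnn1a, Scn10a, Sntg1, Zfp600 and Gucy2g were named after their values were seen. The members and the 19 gene lists were chosen with earlier results of these data known.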

Additional observations from a re-analysis of the deposited data

How the results depend on the processing

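No paired analysis was possible because there is 1 group. The number of genes was 238; it was 150 with a window of 2500 bp, 442 with at least 2 body peaks, 99 with at least 5, 150 with the better 50% of each list, and 359 to 490 on leaving out a replicate. The median signal was 0.540; it was 0.861 with the smaller peak lists, 1.11 with the better 50% and 0.730 counting peaks called in both replicates, and 0.426 to 0.576 on leaving out a replicate. The share with a footprint was 82.6% with a spread of 0.135 percentage points (SD, n = 2), so that small shifts exceeded it: 82.2% with a window of 2500 bp, 82.7% with starts of protein-coding transcripts alone, 82.9% with at least 2 body peaks, 81.6% with at least 5, 82.4% without peaks inside another record, 81.9% with footprints wholly inside, 81.7% without genes whose RefSeq start was open in either replicate and 83.1% without Zfp618. Larger shifts came with the smaller lists (92.6%), the better 50% (98.1%) and peaks called in both (91.5%), and leaving out a replicate gave 78.4% to 79.8%. Body peaks per gene had a median of 5, of 3.5 with at least 2 required and of 8 with at least 5, and of 4 to 4 on leaving out a replicate. The share called in both was 70.6%, and 49.2% to 78.2% on leaving out a replicate. Leaving out a replicate also removes its requirement of 3 body peaks and of a closed promoter; the cause of the other shifts was not tested. The alternatives on RefSeq starts, Zfp618, peaks called in both and copied sequence were chosen after seeing the data. Unknown depth limits what a missing peak shows.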
